A study of Homo sapiens with 4 samples.

Results

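The 10 genes described here are those of the HIF pathway with the classical HIF target VEGFA and the tumour carbonic anhydrases. They were chosen by symbol and matched by Ensembl ID to 10 of the 20263 genes in the count table. Their messenger RNA was read from sequencing libraries of MDA-MB-231, a human cell line of triple-negative breast cancer, kept in medium with 10% fetal bovine serum. Of the 4 libraries, 2 came from cells given the solvent DMSO and 2 from cells given Neoribocic, named in the study's title as a blocker of the cell cycle, in both cases for 24 h. The treatment protocol calls the compound Rib_CA, taken here to be Neoribocic. Neither its dose nor the oxygen level of the cultures is stated. Nothing tells whether libraries of a group were separate cultures, so every p-value reflects the spread between these libraries alone, which may be technical.

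Hypoxia-inducible factors are pairs of an oxygen-sensitive alpha subunit, HIF-1alpha (HIF1A) or HIF-2alpha (EPAS1), and the stable partner ARNT. In oxygenated cells the prolyl hydroxylases EGLN1, EGLN2 and EGLN3 mark the alpha subunits, and the VHL protein then recruits a ubiquitin ligase that sends them for breakdown. When oxygen falls the alpha subunits persist and switch on genes such as VEGFA, the main angiogenic growth factor, and CA9 and CA12, membrane carbonic anhydrases that help tumour cells control pH. Because the alpha subunits are controlled largely by breakdown of the protein, the RNA levels given here are not a measure of HIF activity.

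With Neoribocic the 2 alpha subunit genes moved in opposite directions. HIF1A fell to 0.380 of its DMSO mean, while EPAS1 rose 2.05-fold, VHL 2.25-fold and VEGFA 2.68-fold. EGLN2 also rose, by 1.66-fold, a call lost when some single libraries were left out and when transcript length and GC content were corrected for. ARNT, EGLN1, EGLN3 and CA12 did not pass the test, and CA9 was too low to be tested. In all, 4 of the 9 tested genes rose and 1 fell by edgeR's quasi-likelihood test at a Benjamini-Hochberg adjusted p below 0.05, the threshold used throughout. Over all 13879 genes tested the same test called 40.4%, with 19.1% higher and 21.3% lower, so calls were common in this comparison, and the counts of members are to be read against these shares.

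Libraries held 34774542 to 43014212 counts. Mitochondrial genes took 21.7% of the counts in DMSO replicate 2 and 5.76% to 8.68% in the other libraries. Levels are CPM, counts scaled to a common library size, after TMM scaling, which allows for such differences in composition. Markers of the line were present, with 6 of 6 at 220 CPM or more in every library, although with Neoribocic 4 of them fell (CAV1 by 1.42, ANXA1 by 0.75, AXL by 0.60 and CD44 by 0.58 on the log2 scale) and LGALS1 rose by 1.41. Their part in the results below was not tested. Of 6 markers of luminal or other breast lines, CDH1, ESR1 and PGR did not exceed 1.77 CPM, while EPCAM was at 9.31 to 9.93, GATA3 at 8.22 to 21.8 and ERBB2 at 65.6 to 109 CPM. In these bulk samples, fewer cells with an RNA and less of it per cell cannot be told apart.

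HIF1A (ENSG00000100644, chromosome 14) was the most abundant of the 10 genes. It stood at 647 and 697 CPM in DMSO replicates 1 and 2 and at 216 and 295 CPM in Neoribocic replicates 1 and 2. Both Neoribocic libraries lay far below both DMSO libraries. The log2 fold change was -1.40 ± 0.22 (SE; edgeR adjusted p = 0.00227), the difference of Neoribocic minus DMSO as everywhere below. EPAS1 (ENSG00000116016, chromosome 2), whose product is the alpha subunit best known from endothelium and kidney cancer, was at 56.8 and 57.1 CPM in DMSO and at 116 and 117 CPM with Neoribocic. Replicates were nearly equal and the groups did not overlap, with a log2 fold change of 1.03 ± 0.19 (SE; edgeR adjusted p = 0.00409). ARNT (ENSG00000143437, chromosome 1), the shared partner, was at 50.5 and 56.4 CPM in DMSO and at 61.5 and 74.1 CPM with Neoribocic. Its groups did not overlap either, but the log2 fold change of 0.34 ± 0.21 (SE) did not pass (edgeR adjusted p = 0.215). Of the remaining subunit genes, ARNT2, a paralog of ARNT, was at 20.2 and 28.5 CPM in DMSO and at 6.62 and 7.24 CPM with Neoribocic, a fall (log2 fold change -1.81, edgeR adjusted p = 0.00167). HIF3A had 0 counts in all 4 libraries.

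**Figure D1:**
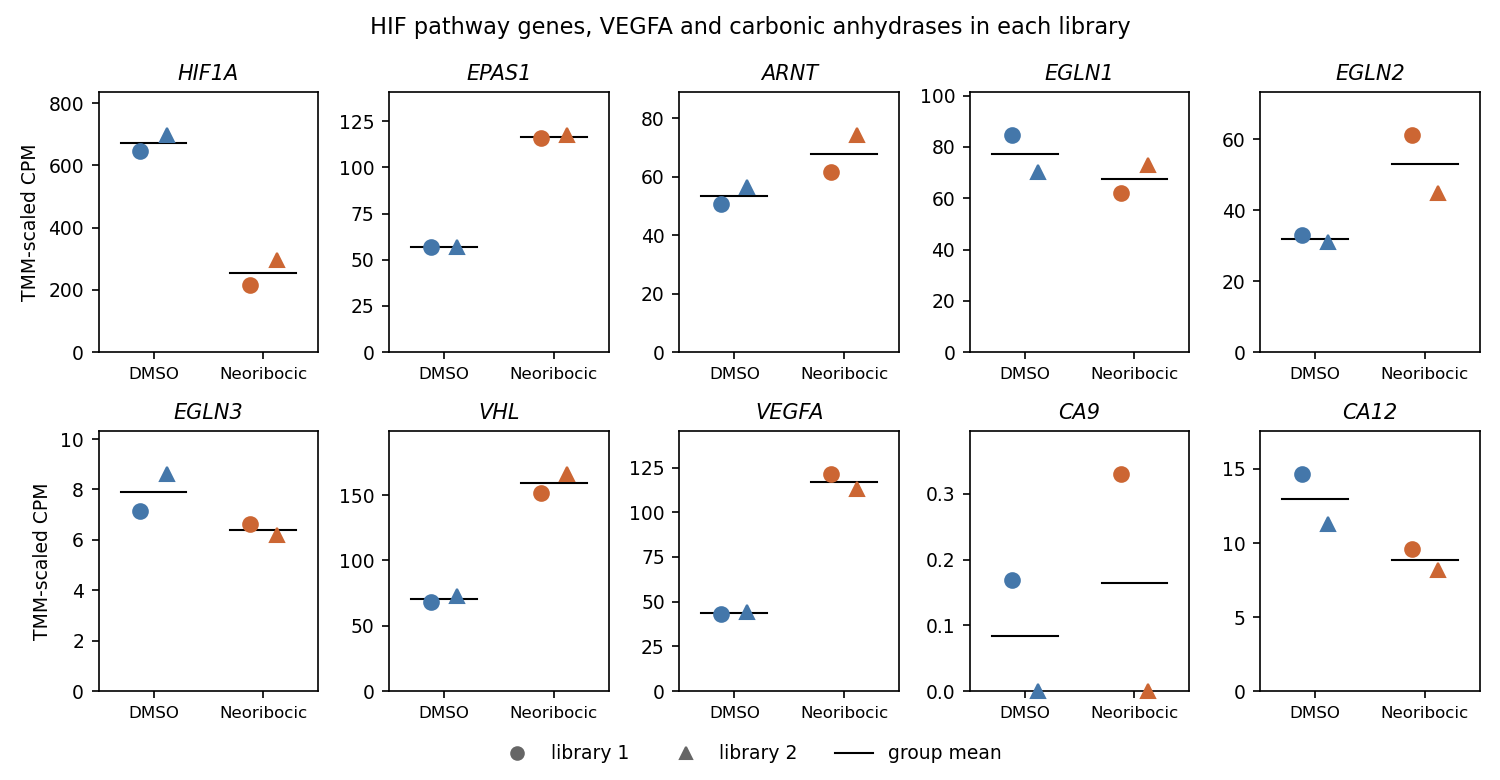
TMM-scaled CPM (vertical axes, from 0, 1 scale per gene) of the 10 genes in each library, with circles for replicate 1, triangles for replicate 2 and a line at the group mean. HIF1A sits at 647 and 697 CPM in DMSO and at 216 and 295 CPM with Neoribocic, EPAS1, VHL and VEGFA are higher in both Neoribocic libraries, and CA9 has reads in only 1 library of each group.

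The balance between the subunits can be read within each library, where the scaling between libraries plays no part. Per kb of transcript, HIF1A had 14.9 and 15.9 times the counts of EPAS1 in DMSO replicates 1 and 2, and 2.44 and 3.28 times in Neoribocic replicates 1 and 2. Relative to ARNT the ratio went from 15.8 and 15.3 to 4.35 and 4.91. Relative to VHL, whose product leads HIF alpha to breakdown, it went from 8.96 and 9.06 to 1.35 and 1.68. HIF1A thus stayed the most abundant of these transcripts per kb in every library, by a much smaller margin with Neoribocic. The ratios are not corrected for length and GC content. With the correction given below, HIF1A stood at -0.87 on the log2 scale in place of -1.40. EPAS1, ARNT and VHL then stood at 1.11, 0.70 and 1.40 in place of 1.03, 0.34 and 1.17.

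**Figure D2:**
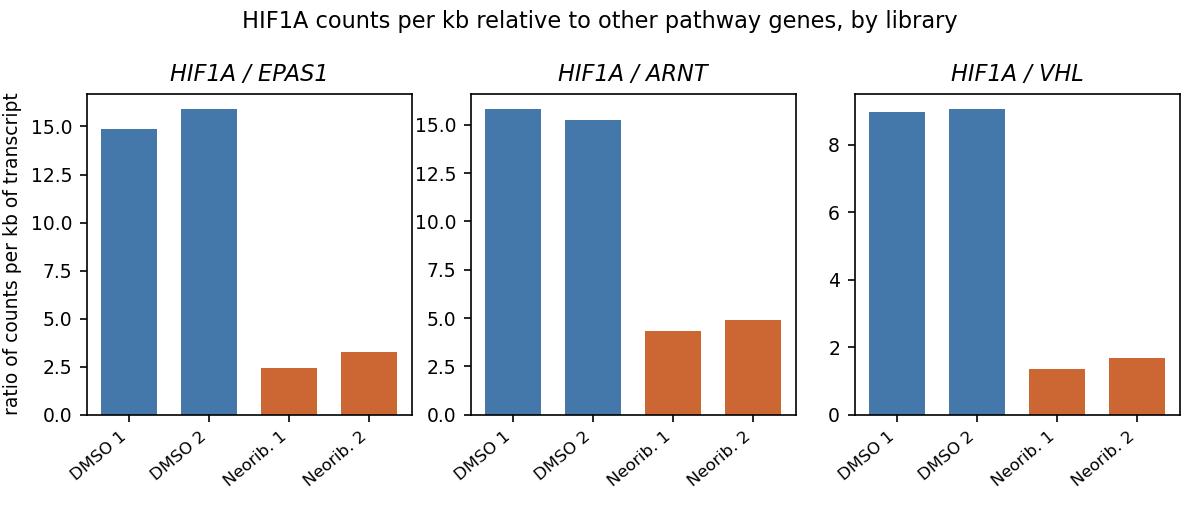
Ratio of HIF1A counts per kb of transcript to those of EPAS1, ARNT and VHL (bars from 0, 1 bar per library, no unit), not corrected for length and GC content. All 3 ratios are lower in both Neoribocic libraries, for EPAS1 at 2.44 and 3.28 against 14.9 and 15.9 in DMSO.

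VHL (ENSG00000134086, chromosome 3), the substrate-recognition subunit of the ubiquitin ligase that binds hydroxylated HIF alpha, was at 68.3 and 72.6 CPM in DMSO and at 152 and 166 CPM with Neoribocic. The groups were well apart, with a log2 fold change of 1.17 ± 0.19 (SE; edgeR adjusted p = 0.00251). The 3 prolyl hydroxylase genes did not move together. EGLN2 (ENSG00000269858, chromosome 19), which encodes PHD1, was at 32.9 and 31.0 CPM in DMSO and at 61.1 and 44.8 CPM with Neoribocic. Its Neoribocic libraries were the higher ones but differed from each other by more than the nearer of them differed from DMSO. The log2 fold change was 0.73 ± 0.23 (SE; edgeR adjusted p = 0.0359). The call was lost without DMSO replicate 1 (0.77, adjusted p = 0.0939), DMSO replicate 2 (0.70, 0.122) or Neoribocic replicate 1 (0.50, 0.222). Of the exon bases of EGLN2, 30.59% also belong to other annotated genes on its strand, among them the readthrough gene RAB4B-EGLN2, and how such reads were assigned is not stated.

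EGLN1 (ENSG00000135766, chromosome 1), which encodes PHD2, the main oxygen sensor acting on HIF-1alpha, was at 84.5 and 70.2 CPM in DMSO and at 62.2 and 73.0 CPM with Neoribocic. These groups overlapped, the only overlap among the 9 tested genes, and the log2 fold change was -0.19 ± 0.21 (SE; edgeR adjusted p = 0.483). EGLN3 (ENSG00000129521, chromosome 14), which encodes PHD3, itself commonly induced by HIF, was low at 7.16 and 8.60 CPM in DMSO and at 6.62 and 6.19 CPM with Neoribocic. Its log2 fold change of -0.30 ± 0.26 (SE) did not pass (edgeR adjusted p = 0.379). Within a library, EGLN1 had 1.02 and 0.900 times the counts of EGLN2 per kb in DMSO replicates 1 and 2 and 0.405 and 0.649 times in Neoribocic replicates 1 and 2. Once length and GC content were corrected for, as given below, EGLN1 rose by 0.52 and EGLN2 stood at 0.17 (edgeR adjusted p = 0.0329 and 0.446), so the direction of this ratio is not settled.

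HIF binds the core letters ACGTG or GCGTG, and the promoter stretches of the 3 hydroxylase genes and the 2 carbonic anhydrase genes are shown because close relatives differ in these letters near the start. Each is the 100 bases before the RefSeq start on GRCh38.p14, 5′ to 3′ on the gene's strand, with matches to ACGTG or GCGTG on either strand in capitals. EGLN1 is at chr1:231422288-231422387 (minus strand), EGLN2 at chr19:40799091-40799190 (plus), EGLN3 at chr14:33951075-33951174 (minus), CA9 at chr9:35673828-35673927 (plus) and CA12 at chr15:63381847-63381946 (minus). For EGLN2 it is the first of 2 RefSeq starts.
EGLN1: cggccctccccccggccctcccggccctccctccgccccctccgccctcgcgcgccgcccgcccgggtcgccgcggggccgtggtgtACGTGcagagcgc
EGLN2: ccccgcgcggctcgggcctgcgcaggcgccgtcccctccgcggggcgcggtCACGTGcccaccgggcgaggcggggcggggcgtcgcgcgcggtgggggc
EGLN3: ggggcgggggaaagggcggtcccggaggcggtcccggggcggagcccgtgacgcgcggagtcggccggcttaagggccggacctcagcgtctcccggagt
CA9: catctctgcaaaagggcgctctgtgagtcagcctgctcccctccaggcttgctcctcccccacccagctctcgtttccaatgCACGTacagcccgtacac
CA12: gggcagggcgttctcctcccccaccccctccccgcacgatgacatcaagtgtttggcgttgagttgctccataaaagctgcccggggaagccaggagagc

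EGLN1 and CA9 both hold the longer form TACGTG, on the gene strand in EGLN1 and on the other strand in CA9, at 14 and 18 bases before the start counted to its first base on the gene's strand. In EGLN2 the match lies within CACGTG, which reads the same on both strands and is also the core of the E-box. EGLN3 and CA12 hold no match in the 100 bases shown. In windows of 300 bases, 250 before to 50 after the start, ACGTG was present on either strand in 21.4% of all 35116 RefSeq promoters, GCGTG in 36.5% and TACGTG in 3.24%. For promoters of the genes tested here the shares were 25.0%, 47.6% and 3.25%. The table held 10 windows for 8 of the 10 genes (not VHL and VEGFA), of which 3 had ACGTG. The other core, GCGTG, was also in 3 of the 10 windows, those of CA12 (at 234 bases before and 40 after the start), EPAS1 and HIF1A, outside the stretches printed. A match is a description of letters and not of binding.

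VEGFA (ENSG00000112715, chromosome 6) was at 42.9 and 44.5 CPM in DMSO and at 121 and 113 CPM with Neoribocic. The replicates were close and the groups far apart, with a log2 fold change of 1.42 ± 0.19 (SE; edgeR adjusted p = 0.00143). Of the 9 other genes of VEGF ligands and receptors, 7 could be tested, 0 rose and 2 fell, with a median log2 fold change of -0.54 against 0.01 over all genes tested. Among all genes tested 19.1% rose and 21.3% fell. KDR, the main signalling receptor for VEGFA, was at 6.60 and 6.07 CPM in DMSO and at 1.22 and 1.45 CPM with Neoribocic, a fall (log2 fold change -2.24 ± 0.30, SE; edgeR adjusted p = 0.00141). KDR is typical of endothelium, and 4 endothelial markers (PECAM1, CDH5, TEK and VWF) summed to 1.44 and 0.884 CPM in the DMSO libraries and to 0.518 and 0.821 CPM in the Neoribocic libraries, with CDH5 at 0 counts in all. The part of such cells in the fall of KDR was not tested. VEGFC, the lymphangiogenic ligand, fell by 0.74 on the log2 scale (edgeR adjusted p = 0.0267), a call lost without DMSO replicate 2 (-0.54, adjusted p = 0.140), Neoribocic replicate 1 (-0.68, 0.139) or Neoribocic replicate 2 (-0.79, 0.0757), so that 1 of the 7 was lower in each case. The co-receptor genes NRP1 and NRP2 stood at -0.54 ± 0.24 and -0.62 ± 0.22 (SE) without passing (edgeR adjusted p = 0.104 and 0.0552), NRP1 at 0.0546 with the correction for length and GC content. FLT1 had 0 counts in every library and FLT4 had 2 counts in DMSO replicate 1 alone. Per kb within a library, VEGFA had 0.431 and 0.349 times the counts of VEGFC in DMSO replicates 1 and 2 and 1.85 and 1.61 times in Neoribocic replicates 1 and 2. Against VEGFB, a ligand of FLT1, it had 0.405 and 0.391 times the counts in DMSO and 0.871 and 0.731 times with Neoribocic. These ratios take the longest coding transcript of each gene, 3535 bases for VEGFA. With the 1199-base principal transcript of VEGFA they were 1.27 and 1.03 in DMSO and 5.46 and 4.75 with Neoribocic for VEGFC, and 1.19 and 1.15 against 2.57 and 2.16 for VEGFB. Both ratios were thus higher in both Neoribocic libraries. With Neoribocic VEGFA had more counts per kb than VEGFC with either transcript. Its order against VEGFC in DMSO, and against VEGFB in both groups, turned on the transcript taken.

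CA9 (ENSG00000107159, chromosome 9), an enzyme widely used as a marker of hypoxic tumour cells, had 6 and 0 counts in DMSO replicates 1 and 2 and 14 and 0 counts in Neoribocic replicates 1 and 2. These correspond to 0.169 and 0.330 CPM in the replicate 1 libraries. If each count is an independent read, the counts of 0 allow at most 0.0915 CPM in DMSO replicate 2 and 0.0632 CPM in Neoribocic replicate 2 (3 counts, counting error only). These limits would be higher if read pairs add 2 counts. No difference between the groups was detectable at this depth, and no fold change is given. Of the exon bases of CA9, 38.5% overlap ARHGEF39 on the opposite strand, a gene with 264 to 623 counts per library, and whether the few CA9 reads belong to it was not tested. CA12 (ENSG00000074410, chromosome 15) was at 14.6 and 11.3 CPM in DMSO and at 9.58 and 8.15 CPM with Neoribocic. Both Neoribocic libraries were lower, but the log2 fold change of -0.55 ± 0.26 (SE) did not pass (edgeR adjusted p = 0.118).

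Among 13 further carbonic anhydrase genes 7 could be tested, of which 2 rose and 0 fell, with a median of 0.65. All genes tested gave 19.1% higher and 21.3% lower. CA14, another membrane-bound form, rose from 0.222 ± 0.0744 to 1.66 ± 0.247 CPM (SD, n = 2 per group; log2 fold change 2.89 ± 0.50, SE; edgeR adjusted p = 0.00343) and so reached only a low level. CA5B, a mitochondrial form, rose by 0.83 on the log2 scale (edgeR adjusted p = 0.0214), and by 1.58 with the correction for length and GC content (0.00362). Its call was lost without DMSO replicate 1 (0.78, adjusted p = 0.0837), DMSO replicate 2 (0.89, 0.0601) or Neoribocic replicate 2 (0.69, 0.103), and 22% of its exon bases overlap a gene on the opposite strand. With CA5B lost, 1 of the 7 was higher without DMSO replicate 2 or Neoribocic replicate 2. CA5A, CA6, CA7 and CA10 had 0 counts in all 4 libraries.

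Levels per kb of the longest annotated coding transcript put the 10 genes in an order within each group. In DMSO HIF1A led with 170 ± 8.78 CPM per kb (SD, n = 2), followed by VHL with 18.9 ± 0.819 and VEGFA with 12.4 ± 0.319. EGLN2, EPAS1, ARNT and EGLN1 lay at 10.9 to 11.3 CPM per kb and could not be ranked, since the libraries of each overlapped those of the others. EGLN3 (2.77), CA12 (2.02) and CA9 (0.0523) came last. With Neoribocic the order was HIF1A at 64.6 ± 13.97, VHL at 42.5 ± 2.63, VEGFA at 33.2 ± 1.60, EPAS1 at 22.6 ± 0.218, EGLN2 at 18.8 ± 4.09, ARNT at 13.9 ± 1.83 and EGLN1 at 9.53 ± 1.08 CPM per kb, again followed by EGLN3 (2.25), CA12 (1.38) and CA9 (0.102). No neighbours among the first 9 of these overlapped between libraries. The place of VEGFA depends on the transcript taken. Its principal transcript in GENCODE is 1199 bases long, the longest coding one 3535 bases, and with the shorter its level would be 36.4 CPM per kb in DMSO and 97.7 with Neoribocic.

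Read counts can depend on a transcript's length and GC content in a way that differs between libraries, so the 9 tested genes were also fitted with a correction for both. HIF1A, with a transcript of 39.2% GC, moved to -0.87 ± 0.16 (SE; edgeR adjusted p = 0.0116) and stayed lower. EPAS1 and VHL changed little, to 1.11 ± 0.14 and 1.40 ± 0.13 (SE; edgeR adjusted p = 0.00434 and 0.00304). VEGFA moved to 0.76 ± 0.15 with its 1199-base transcript but to 1.36 ± 0.14 with its 3535-base transcript (SE; edgeR adjusted p = 0.0122 and 0.00379), so the size of its corrected rise turns on the annotation chosen. The correction brought EGLN2 to 0.17 (edgeR adjusted p = 0.446) and ended its call. It brought ARNT to 0.70 and EGLN1 to 0.52, both then past the threshold (edgeR adjusted p = 0.0143 and 0.0329), with the sign of EGLN1 turned. EGLN3 and CA12 stood at -0.16 and -0.26 and did not pass (edgeR adjusted p = 0.594 and 0.435). Whether the trends with length and GC content come from the libraries or from the response was not tested.

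**Figure D3:**
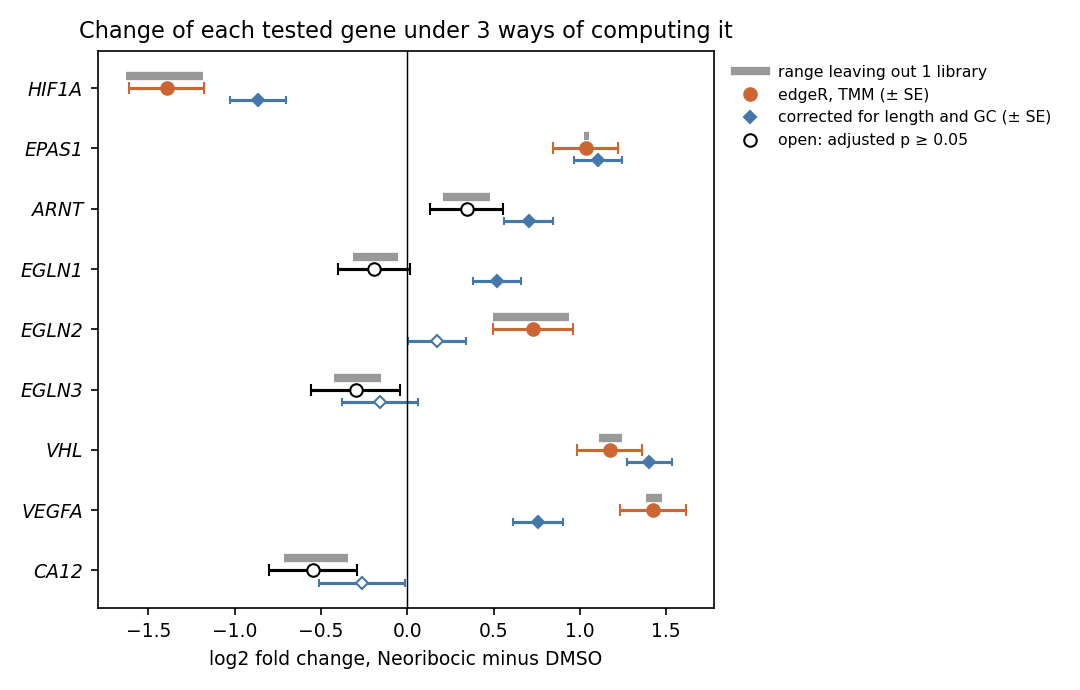
Log2 fold change (horizontal axis) of the 9 tested genes from the edgeR fit with TMM scaling (circles ± SE), the same with the length and GC correction (diamonds ± SE), and the range when 1 library is left out (grey bars); open symbols are at an adjusted p of 0.05 or more. HIF1A is below 0 and EPAS1, VHL and VEGFA above 0 in all 3, whereas EGLN1 is on both sides of 0.

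The calls of HIF1A, EPAS1, VHL and VEGFA held under all 17 alternative settings, including each library left out in turn. Across those settings the log2 fold change ran from -1.63 to -0.87 for HIF1A, from 1.03 to 1.20 for EPAS1, from 1.11 to 1.40 for VHL and from 0.76 to 1.59 for VEGFA. The groups did not overlap in 8 of the 9 tested genes, 5 higher and 3 lower with Neoribocic. Over all genes tested this held for 75.1%, with 37.8% higher and 37.3% lower.

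Genes that act on the HIF proteins changed in both directions. Of 15 genes of oxygen sensing and HIF protein control outside the 10, all tested, 6 rose and 4 fell, with a median log2 fold change of 0.44. The shares over all genes tested were 19.1% higher and 21.3% lower. STUB1, a chaperone-linked ubiquitin ligase, USP20, a deubiquitinase described to act on HIF-1alpha, and P4HTM, a transmembrane prolyl hydroxylase, rose by 1.29, 1.06 and 0.96 (edgeR adjusted p = 0.00406, 0.00711 and 0.0116). Partners of VHL in its ubiquitin ligase went both ways. ELOB and ELOC, the elongins B and C, rose by 1.51 ± 0.40 and 0.85 ± 0.25 (SE; edgeR adjusted p = 0.0292 and 0.0266), and CUL2, the scaffold of the ligase, fell by 1.10 ± 0.22 (edgeR adjusted p = 0.00651). ELOB was at 54.8 and 51.9 CPM in DMSO and at 212 and 91.2 CPM with Neoribocic, so its rise differed widely between the libraries. The coactivator genes EP300 and CREBBP, which HIF needs for transcription, fell by 1.17 and 1.09 (edgeR adjusted p = 0.0141 and 0.0169). HIF1AN, the asparaginyl hydroxylase that blocks their recruitment, was nearly level at 107 ± 12.8 and 109 ± 1.64 CPM (SD, n = 2 per group), and with the correction stood at 0.94 and passed (edgeR adjusted p = 0.00547).

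Most of these calls were lost in at least 1 fit that left a library out. Such a fit has 1 library in a group, so a call can be lost while its estimate hardly moves. P4HTM, for example, stood at 0.92 without DMSO replicate 1 against 0.96 with all libraries. Without DMSO replicate 1, DMSO replicate 2, Neoribocic replicate 1 or Neoribocic replicate 2 the list had 2, 3, 2 and 5 higher genes and 4, 1, 0 and 2 lower genes. Without Neoribocic replicate 1, CUL2 stood at -0.95, EP300 at -1.07 and CREBBP at -1.04 (edgeR adjusted p = 0.0569, 0.103 and 0.110), P4HTM at 0.82 (0.0770), ELOB at 0.78 (0.0667) and ELOC at 0.55 (0.185). Without DMSO replicate 2, the library rich in mitochondrial counts, EP300 stood at -0.69 and CREBBP at -0.61 (edgeR adjusted p = 0.0630 and 0.0760), ELOB at 1.48 and ELOC at 0.76 (0.161 and 0.115). Without DMSO replicate 1, P4HTM stood at 0.92, ELOB at 1.55 and ELOC at 0.95 (edgeR adjusted p = 0.0559, 0.164 and 0.0633), and without Neoribocic replicate 2 CREBBP stood at -1.13 (0.0639). The call of USP20 held in each case. With the correction for length and GC content STUB1 stood at 0.43, P4HTM at 0.29, ELOB at 0.51, EP300 at -0.75 and CREBBP at -0.83, none past the threshold (edgeR adjusted p = 0.0713, 0.176, 0.199, 0.0878 and 0.0637), while CUL2 passed at -0.50 (0.0385).

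Known HIF target genes outside the 10 changed in both directions. Of 32 listed, 31 were tested, 6 rose, 4 fell and 21 did not pass, with a median of 0.11. Over all genes tested 19.1% rose and 21.3% fell, with a median of 0.01, and the counts of targets are to be read against these shares. DDIT4, an inhibitor of mTORC1 signalling that is also a stress-response gene, was at 64.5 and 94.6 CPM in DMSO and at 591 and 413 CPM with Neoribocic. It rose by 2.66 ± 0.28 (SE; edgeR adjusted p = 7.79e-04), or by 2.03 with the correction for length and GC content, and 41.16% of its exon bases overlap an antisense gene. STC2, a secreted glycoprotein gene also induced by other stresses, rose by 2.28 from 1.54 ± 0.106 CPM (SD, n = 2), and SLC2A1, the glucose transporter GLUT1, by 1.09 from 175 ± 18.4 CPM (SD, n = 2). The targets that fell most clearly were P4HA1 and PLOD2, enzymes that hydroxylate collagen, and KDM3A, a histone demethylase. P4HA1 was at 104 and 89.5 CPM in DMSO and at 35.9 and 33.8 CPM with Neoribocic, and KDM3A at 99.8 and 90.8 CPM against 37.6 and 36.8 CPM. They fell by 1.47 and 1.36 on the log2 scale (edgeR adjusted p = 0.00154 and 0.00180). PLOD2 fell by 1.38 ± 0.28 (SE; edgeR adjusted p = 0.00724). The calls of these 6 genes held under all 17 alternatives. LDHA, the glycolytic lactate dehydrogenase, was at 458 and 921 CPM in DMSO and at 400 and 252 CPM with Neoribocic, with a wide spread in both groups, and did not pass (-1.08 ± 0.39, SE; edgeR adjusted p = 0.0728). Without DMSO replicate 2 LDHA stood at -0.48 (0.278).

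RefSeq promoter windows were found for 28 of the 32 target genes, and 19 of these genes had ACGTG in at least 1 window (26 of 45 windows, or 57.8%). For promoters of all genes tested the share of windows was 25.0%. Of the target genes with the match 19 were tested, 2 rose and 3 fell, with a median log2 fold change of -0.22. Of those without it 8 were tested, 2 rose and 1 fell, with a median of 0.26. The genes shown to rise and to fall were thus found on both sides of this division.

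Of 7 genes of acid and bicarbonate transport, 2 rose and 1 fell, beside 19.1% higher and 21.3% lower over all genes tested. SLC16A3, the lactate exporter MCT4 and a HIF target, rose from 142 ± 9.53 to 332 ± 86.7 CPM (SD, n = 2 per group; log2 fold change 1.22 ± 0.23, SE; edgeR adjusted p = 0.00447). BSG, the chaperone of the lactate transporters, rose by 0.94 (edgeR adjusted p = 0.00982), to 0.76 without Neoribocic replicate 1 and 0.24 with the correction, where it did not pass (0.0772 and 0.211); 1 gene then rose without that library. SLC4A4, a sodium bicarbonate cotransporter, was at 3.27 and 3.99 CPM in DMSO and at 0.330 and 0.527 CPM with Neoribocic, a fall (log2 fold change -3.07 ± 0.41, SE; edgeR adjusted p = 0.00131; -2.23 for SLC4A4 with the correction on its longest coding transcript).

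**Figure D4:**
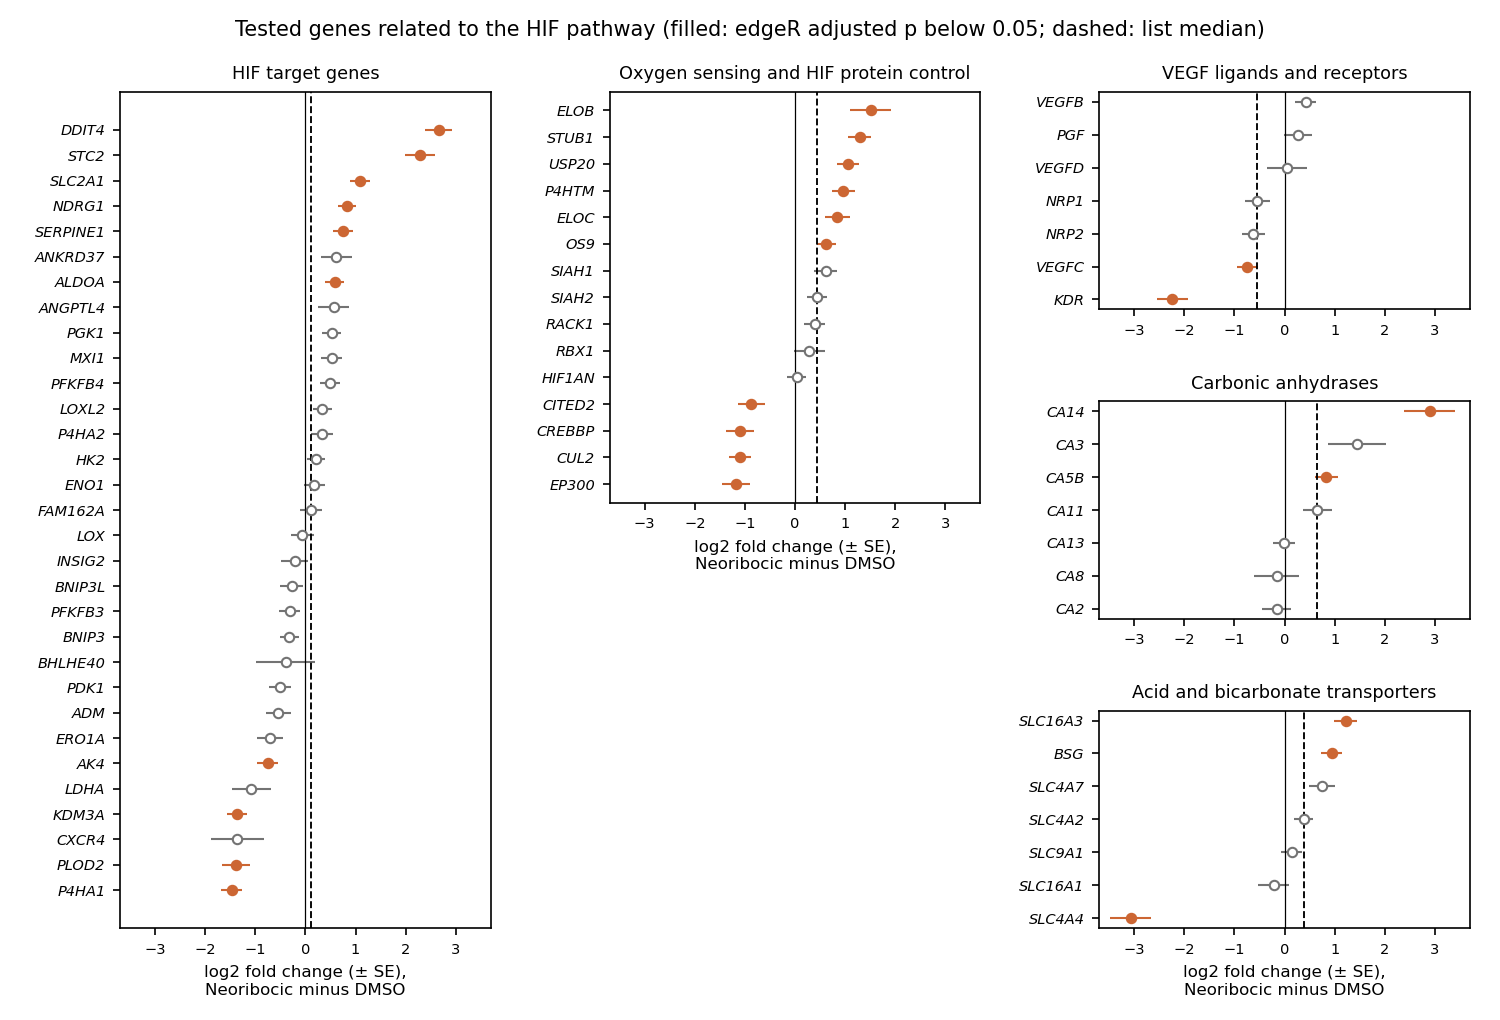
Log2 fold change ± SE (horizontal axes) of every tested gene on the 5 larger related lists, filled where the edgeR adjusted p is below 0.05, with each list's median dashed. HIF target genes run from P4HA1 at -1.47 to DDIT4 at 2.66 around a median of 0.11, and KDR and SLC4A4 are the lowest points of their lists.

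For each of the 5 genes that passed, the 10808 tested genes with a symbol and a mean of at least 5 CPM were ranked by the distance of their log2 CPM profile over the 4 libraries, each centred on its own mean. Nearest to HIF1A were PAPPA, SGO1 and ZEB2 (distances 0.0466, 0.0547 and 0.0587 in log2 units), and among the nearest to EPAS1 were WDR55 and MAPK13 (0.0434 and 0.0499). Nearest to VHL was FUCA1 (0.0256), followed by SLC25A33 and DUSP28, nearest to VEGFA was MAPRE3 (0.0347), followed by SLC25A28 and NRSN2, and nearest to EGLN2 was CLP1 (0.0454), followed by UCKL1 and MED31. With 4 libraries many genes share any such profile, so these names describe likeness of values only.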

How the data were processed

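The authors deposited raw, unnormalized counts for human Ensembl genes in 2 DMSO and 2 Neoribocic libraries. The builds in the submitters' processing notes, GRCm38 and mm10, are of mouse and go against the human IDs. The sources used here give no aligner, counter or strand setting. Among counts below 20, 62.3% to 65.4% were even, as when read pairs add 2 counts, and the true precision may then be less than such totals give. Symbols were found for 20148 of 20263 IDs. Transcript length, GC content and exon overlap came from GENCODE 29, and promoters from RefSeq (GRCh38.p14).

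Genes were kept with filterByExpr and tested with edgeR 4.0.16 in R 4.3.3 (TMM scaling, robust quasi-likelihood fit, group as the only term), with Benjamini-Hochberg adjustment over all genes tested. The SE was taken from the log2 fold change and its F statistic (size over square root of F). The fit was tested on simulated counts, drawn with each gene's own spread as estimated from these 4 libraries. There 12 of its 83 calls were false, a share above the nominal one in this setting. It called 0 of 66 changes of 1.5-fold, 13 of 67 of 2-fold and 58 of 65 of 4-fold in the right direction. Adjusted p-values near the threshold are to be read with care, and a gene not called may still have changed. The members, gene lists and rules were chosen with earlier results of these data known. Named genes are all members, up to 3 called genes per direction from each list and the 3 genes most like each called member (log2 CPM, prior count 3). AK4, ALDOA, ELOB, ELOC, HIF1AN, LDHA, NRP1, NRP2 and genes at 0 were named after their values were seen, and 1 gene that the rule names is not reported here. The length and GC correction fitted a smooth surface to log2 CPM in each library (mgcv 1.9.3) and entered edgeR as offsets. Other alternatives used DESeq2 1.42.0, limma 3.58.1 (voom), other scalings and filters, the replicate number as a block, libraries left out, mitochondrial genes left out and halved counts. The correction with the longest coding transcript was added after the data were seen.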

Additional observations from a re-analysis of the deposited data

How the results depend on the processing

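Counts of members called stayed at 3 to 5 higher and 1 lower under all 17 alternatives. The replicate numbers were not found to pair the libraries (correlation of deviations -0.0548), and with the replicate block 5594 genes, 4 members higher and 1 lower were called. Upper-quartile factors and library totals moved the median log2 fold change of all genes by 0.12 and 0.17 and the share of calls that were higher from 47.2% to 56.8% and 59.6%; each gave 1 lower gene among VEGF ligands and receptors in place of 2. Leaving out 1 library gave 1001 to 2215 higher and 1467 to 2382 lower genes among all genes, Neoribocic against DMSO, in place of 2650 and 2960. It gave 2 to 5 higher and 0 to 4 lower oxygen-sensing genes, 1 to 2 lower VEGF genes, 1 to 2 higher carbonic anhydrases and 1 to 3 higher transporters. Among HIF target genes 9 were higher with upper-quartile factors, and 8 or, with the longest coding transcript, 7 with the length and GC correction. The main fit gave 6, and each of these fits gave 4 lower ones. DESeq2 gave 7 higher and 6 lower targets. The length and GC correction left 2 lower oxygen-sensing genes with either transcript choice. Signs turned with it for EGLN1 (0.52, or 0.49 with the longest coding transcript), ALDOA (-0.12 and -0.16), NRP1 (0.0546 and 0.0118) and AK4 (0.0146, with the principal transcript). HIF1AN was at -0.0759 to 0.157 with 1 library left out. In these cases the cause was not tested. With 2 libraries a group, changes could be missed, also in ARNT, EGLN1, EGLN3 and CA12. The SE of their log2 fold changes was 0.21, 0.21, 0.26 and 0.26. CA9 was too low to be tested.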
